A study of Homo sapiens with 8 samples.

Results

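The genes described here are 9 signalling genes, GPRC5A, SDC4, F2RL1, CSF1, ELK3, GRB10, RND3, MYOF and LIPH, out of 63241 genes with a value in each library. They were chosen by their own values in these libraries, as genes that recurred with lower expression in sorafenib-resistant (SR) than in parental (WT) cells, so the SR and WT values below are a description and carry no test. Expression was measured by mRNA sequencing in 4 groups of 2 libraries each, 8 in all. Both HepG2 and Huh7 are established lines of human liver cancer. HepG2 WT and Huh7 WT carry the treatment label control, and HepG2 SR and Huh7 SR carry the treatment label sorafenib, a multikinase inhibitor. No other allele or agent is labelled for any group. The study derived each SR line by exposure to increasing sorafenib, so that acquired resistance and the drug itself cannot be told apart. A single SR line is described for each parental line, and nothing states that the 2 libraries of a group came from separate cultures, so the spread between them may be technical.

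Several of these genes work at the plasma membrane. GPRC5A is a retinoic acid-inducible orphan receptor, and F2RL1 encodes PAR2, a receptor that trypsin-like proteases switch on by cutting its outer end. SDC4 is a syndecan, a transmembrane heparan sulfate proteoglycan that helps growth factors and matrix proteins engage their receptors. CSF1 is the growth factor of macrophages, and LIPH is a phospholipase that makes lysophosphatidic acid, a lipid ligand of G protein-coupled receptors. MYOF is a ferlin, a calcium-binding protein of membrane fusion and repair. Inside the cell, GRB10 is an adaptor that restrains signalling from insulin-type receptors, and RND3 is an atypical small GTPase that opposes ROCK, a kinase of cell contraction. ELK3 is a ternary complex factor, an ETS protein that sits on DNA with the serum response factor SRF and answers to ERK, a kinase downstream of RAF.

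Libraries did not follow their labelled cell line, and this touches every value below. Similarity was taken as Pearson's r of log2(FPKM + 1) over 15173 genes, and genes are not independent of one another. FPKM is a read level scaled for transcript length and library size. A set of 5 similar libraries (r between 0.914 and 0.977) held both HepG2 WT libraries, replicate 1 of HepG2 SR and replicate 2 of each Huh7 group. The replicate 1 libraries of both Huh7 groups resembled each other (r = 0.965) and no other library (r at most 0.846). HepG2 SR replicate 2 had an r of at most 0.846 with any library. All libraries carry the same batch label. Of 9 hepatocyte markers, 7 stood at 1 FPKM or more in every library. Their summed level was higher in SR than in WT in each replicate pair. It was 4521 and 5492 FPKM in WT and 5547 and 7668 in SR libraries of HepG2, and 635 and 1108 in WT and 851 and 5303 in SR libraries of Huh7. Single markers did not all share the order of the sum. ALB, its largest part in most libraries, was higher in SR in each pair. APOA1 was lower in SR in both HepG2 pairs, APOB and SERPINA1 in HepG2 pair 2, and HNF4A in HepG2 pair 1. TTR was lower in Huh7 pair 1, and FGB in pair 1 of both lines. The part of the hepatocyte markers in the differences below was not tested. The 6 stromal markers summed to between 0.732 and 9.03 FPKM and the 4 endothelial markers to between 0.772 and 4.52 FPKM. The 5 blood cell markers summed to between 245 and 293 FPKM and to between 830 and 906 in the WT and SR libraries of HepG2, and to between 61.3 and 73.3 and between 83.6 and 1065 in those of Huh7. LYZ stood between 44.2 and 1058 FPKM and made up most of that sum in every library. CD68 stood between 3.94 and 29.1 FPKM and CD14 between 0.0575 and 6.27 FPKM. PTPRC and CD3E reached at most 0.0258 and 0.0415 FPKM in any library. FPKM carry no read totals. Spacing of low values gave a rough 27.8 to 56.5 M reads per library, the best fit within a set search range. In most libraries the values fell on whole reads about as often as by chance, at 5.57% in HepG2 SR replicate 1 against 4%. The depths are thus not established. On them the 9 genes would rest on about 28.7 reads at the fewest, for RND3 at 0.214 FPKM in HepG2 SR replicate 1.

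Promoter sequences are shown so that the starts of genes listed together can be compared. RefSeq (GRCh38.p14) start sites were listed for 7 of the 9 genes, all but GPRC5A and CSF1, and the first listed start of each gene was used. In the window from 250 bases before to 50 after the start, 4 genes were rich in G and C, at 83.7% in ELK3, 81.0% in GRB10, 74.0% in SDC4 and 69.0% in F2RL1. RND3, MYOF and LIPH stood lower, at 51.7%, 46.7% and 43.0%. Later listed starts, not used here, stood at 55.7% in ELK3, at 81.7%, 68.0%, 48.7% and 33.7% in GRB10 and at 53.7% in RND3, so the figure depends on the start taken. Over all 27305 promoters the median was 58.3%, so that ELK3 lay at percentile 99.4 and LIPH at percentile 17.3. The 250 bases before the start are printed 5′ to 3′ for 4 genes, from either side of that difference, with motif matches on either strand in capitals. For SDC4 they lie at chr20:45348425-45348674 (minus strand), for F2RL1 at chr5:76818780-76819029 (plus), for RND3 at chr2:150487696-150487945 (minus) and for LIPH at chr3:185552589-185552838 (minus).
SDC4: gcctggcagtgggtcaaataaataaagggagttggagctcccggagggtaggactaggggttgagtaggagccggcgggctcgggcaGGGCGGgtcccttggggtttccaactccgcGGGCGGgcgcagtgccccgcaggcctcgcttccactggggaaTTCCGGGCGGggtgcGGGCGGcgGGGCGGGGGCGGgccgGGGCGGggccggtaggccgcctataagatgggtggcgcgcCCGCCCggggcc
F2RL1: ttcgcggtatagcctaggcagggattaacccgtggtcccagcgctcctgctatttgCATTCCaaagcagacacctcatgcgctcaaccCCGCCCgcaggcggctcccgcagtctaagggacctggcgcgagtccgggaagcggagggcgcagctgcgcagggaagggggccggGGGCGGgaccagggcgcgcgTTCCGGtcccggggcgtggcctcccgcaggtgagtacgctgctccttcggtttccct
RND3: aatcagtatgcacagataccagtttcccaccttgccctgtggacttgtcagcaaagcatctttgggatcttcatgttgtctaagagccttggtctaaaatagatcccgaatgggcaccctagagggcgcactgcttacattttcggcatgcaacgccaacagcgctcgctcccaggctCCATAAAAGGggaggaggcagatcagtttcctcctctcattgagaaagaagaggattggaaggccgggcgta
LIPH: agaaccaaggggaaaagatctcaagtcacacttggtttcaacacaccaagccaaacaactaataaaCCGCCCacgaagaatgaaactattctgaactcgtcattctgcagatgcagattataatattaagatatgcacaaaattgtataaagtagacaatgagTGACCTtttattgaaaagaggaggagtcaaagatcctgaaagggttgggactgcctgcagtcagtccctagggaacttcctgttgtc

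The SP1 motif GGGCGG, which 44.6% of all promoters hold in the same window, matched 8 times in SDC4, 5 times in ELK3, 4 times in GRB10, 3 times in F2RL1 (2 of them in the printed bases), 1 time in LIPH and 0 times in RND3 and MYOF. The ETS motif CCGGAA, present in 17.6% of promoters, matched 1 time in SDC4, where it overlaps an SP1 match, and 1 time in F2RL1. F2RL1 also held 1 match of the TEAD motif GGAATG, which 14.0% of promoters hold. RND3 held the only CArG box, the element read by SRF, which 1.29% of all promoters hold. The nuclear receptor motif AGGTCA matched 1 time each in LIPH and MYOF and is found in 13.9% of promoters. It also matched at a later listed start of ELK3 and of GRB10. The AP-1 motif TGANTCA, found in 7.76%, matched in none of the 7 windows. These are letter matches in a short window and no measurement of binding.

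Among the receptors, GPRC5A and F2RL1 were both lower in SR than in WT in each replicate pair. GPRC5A (ENSG00000013588, chr12:12890782-12917937, plus strand, GRCh38) measured 4.83 and 2.72 FPKM in HepG2 WT, 0.513 and 0.260 in HepG2 SR, 3.15 and 5.40 in Huh7 WT, and 0.768 and 0.941 in Huh7 SR. All 4 SR libraries lay below all 4 WT libraries, and the lowest WT value was 2.89 times the highest SR value. It reached 1 FPKM in the 4 WT libraries only, so it entered the genes tested through the group in which it is high. In HepG2 the mean was 3.77 ± 1.5 FPKM in WT and 0.386 ± 0.179 in SR, and in Huh7 it was 4.27 ± 1.59 in WT and 0.854 ± 0.122 in SR (SD, n = 2 each). As log2(FPKM + 1), the scale of every fold change here, the difference of SR from WT was -1.75 (SE 0.42) in HepG2 and -1.48 (SE 0.42) in Huh7. Adding 1 compresses the difference of so low a gene: with 0.1 added instead it was -2.99 and -2.15. In bulk RNA, fewer cells of a kind and less RNA per cell cannot be told apart.

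F2RL1 (ENSG00000164251, chr5:76818933-76835315, plus strand) was more abundant, at 91.1 and 46.1 FPKM in HepG2 WT, 21.3 and 4.96 in HepG2 SR, 16.3 and 73.7 in Huh7 WT, and 4.26 and 16.9 in Huh7 SR. SR lay below WT within each cell line in HepG2, whereas in Huh7 the higher SR value, in replicate 2, exceeded the lower WT value, in replicate 1. WT was 4.28 and 9.30 times SR in the HepG2 replicate pairs, and 3.82 and 4.37 times SR in the Huh7 pairs. Its log2 differences, -2.52 in HepG2 and -1.89 in Huh7 (SE 0.98 each), were the largest of the 9 genes on this scale in both cell lines with all libraries kept. With single libraries left out they ran from -3.47 to -1.56 and from -2.95 to -0.83.

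CSF1 (ENSG00000184371, chr1:109910242-109930992, plus strand), the ligand of this set, measured 13.6 and 15.5 FPKM in HepG2 WT, 4.98 and 11.0 in HepG2 SR, 9.66 and 16.1 in Huh7 WT, and 3.74 and 7.12 in Huh7 SR. SR was below WT within each cell line, and the sets overlapped only between lines, where HepG2 SR replicate 2 exceeded Huh7 WT replicate 1. The log2 difference was -0.88 (SE 0.50) in HepG2, with -0.37 without HepG2 SR replicate 1 and -1.38 without HepG2 SR replicate 2. In Huh7 it was -1.12 (SE 0.50), and -0.73 without Huh7 SR replicate 1. CSF1R, the receptor of CSF1, reached at most 0.240 FPKM in any library, and IL34, its other ligand, at most 0.553 FPKM.

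SDC4 (ENSG00000124145, chr20:45325288-45348424, minus strand) had the highest level of the 9 genes per transcript length. It measured 202 and 247 FPKM in HepG2 WT, 90.8 and 46.1 in HepG2 SR, 142 and 179 in Huh7 WT, and 26.1 and 79.7 in Huh7 SR. All SR libraries lay below all WT libraries, also across cell lines, with a lowest WT value 1.56 times the highest SR value. The mean was 224 ± 31.7 FPKM in WT and 68.4 ± 31.6 in SR cells of HepG2, and 160 ± 26.7 in WT and 52.9 ± 37.9 in SR cells of Huh7 (SD, n = 2 each). The log2 difference was -1.77 (SE 0.58) in HepG2 and -1.78 (SE 0.58) in Huh7. With single libraries left out it ran from -2.25 to -1.29 in HepG2 and from -2.56 to -0.99 in Huh7, the last without Huh7 SR replicate 1. Its relatives SDC1 and SDC2 did not share this order. SDC1 measured 86.8 and 85.8 FPKM in HepG2 WT and 84.5 and 49.7 in HepG2 SR, and at 26.2 and 53.8 in Huh7 WT and 53.2 and 64.4 in Huh7 SR. SDC2 was higher in SR than in WT in 3 of the 4 pairs, the exception being HepG2 replicate 2. SDC3 ran between 0.786 and 4.68 FPKM and was lower in SR than in WT in 3 of the 4 pairs, the exception again being HepG2 replicate 2. A transcript within an SDC4 intron on the same strand, AL021578.1, was listed at 0.217 to 1.73 FPKM.

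The transcription factor ELK3 (ENSG00000111145, chr12:96194382-96269835, plus strand) measured 16.4 and 10.1 FPKM in HepG2 WT, 5.05 and 7.14 in HepG2 SR, 9.82 and 8.44 in Huh7 WT, and 3.40 and 4.69 in Huh7 SR. All SR libraries again lay below all WT libraries, by a narrower margin, with the lowest WT value 1.18 times the highest SR value. The log2 difference was -0.98 (SE 0.39) in HepG2 and -1.01 (SE 0.39) in Huh7. With single libraries left out it stayed from -1.31 to -0.66 in HepG2, and in Huh7 from -1.20 to -0.83.

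GRB10 (ENSG00000106070, chr7:50590063-50793462, minus strand) measured 13.3 and 10.6 FPKM in HepG2 WT, 3.61 and 14.1 in HepG2 SR, 9.60 and 15.4 in Huh7 WT, and 4.11 and 3.77 in Huh7 SR. The other 3 SR libraries lay between 3.61 and 4.11 FPKM, below every WT library. HepG2 SR replicate 2, the library unlike all others, lay among the WT values. The log2 difference in Huh7 was -1.42 (SE 0.59). In HepG2 it was -0.63 (SE 0.59), turning to 0.23 without HepG2 SR replicate 1 and to -1.49 without HepG2 SR replicate 2.

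RND3 (ENSG00000115963, chr2:150468195-150539011, minus strand) was weakly expressed, at 1.71 and 0.649 FPKM in HepG2 WT, 0.214 and 8.82 in HepG2 SR, 2.38 and 0.486 in Huh7 WT, and 0.871 and 0.231 in Huh7 SR. Its highest level was in an SR library, HepG2 SR replicate 2, and the label of lower expression in SR did not hold for HepG2 as a group. There the log2 difference was 0.71 (SE 0.97), and -0.80 without that library. In Huh7 it was -0.56 (SE 0.97), and 0.03 without Huh7 WT replicate 1. In the other 3 pairs SR was lower than WT.

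MYOF (ENSG00000138119, chr10:93306429-93482317, minus strand) spanned the widest range of the 9 genes, 71.7 times from lowest to highest. It measured 3.81 and 0.569 FPKM in HepG2 WT, 0.125 and 2.79 in HepG2 SR, 8.96 and 0.191 in Huh7 WT, and 2.09 and 0.341 in Huh7 SR. SR was lower in both replicate 1 pairs and higher in both replicate 2 pairs. The log2 differences were smaller than their errors, at -0.41 (SE 1.15) in HepG2 and -0.76 (SE 1.15) in Huh7. They turned to 0.46 without HepG2 SR replicate 1, to 0.40 without HepG2 WT replicate 1 and to 0.77 without Huh7 WT replicate 1.

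LIPH (ENSG00000163898, chr3:185506262-185552613, minus strand) measured 1.36 and 1.25 FPKM in HepG2 WT, 0.503 and 1.37 in HepG2 SR, 11.0 and 0.648 in Huh7 WT, and 3.39 and 0.594 in Huh7 SR. The 3 libraries outside the similar set held its highest values, 1.37, 3.39 and 11.0 FPKM, although 1.37 exceeded the next value, 1.36, by little. Of the 9 genes LIPH alone had that order, which 13.2% of all genes tested had. SR lay below WT by 0.65 in HepG2 replicate 1 and by 1.45 in Huh7 replicate 1 on the log2 scale. In both replicate 2 pairs the difference was 0.08 in HepG2 and -0.05 in Huh7. The group difference was -0.29 (SE 0.95) in HepG2 and 0.04 without HepG2 SR replicate 1, and -0.75 (SE 0.95) in Huh7 and 0.68 without Huh7 WT replicate 1.

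**Figure D1:**
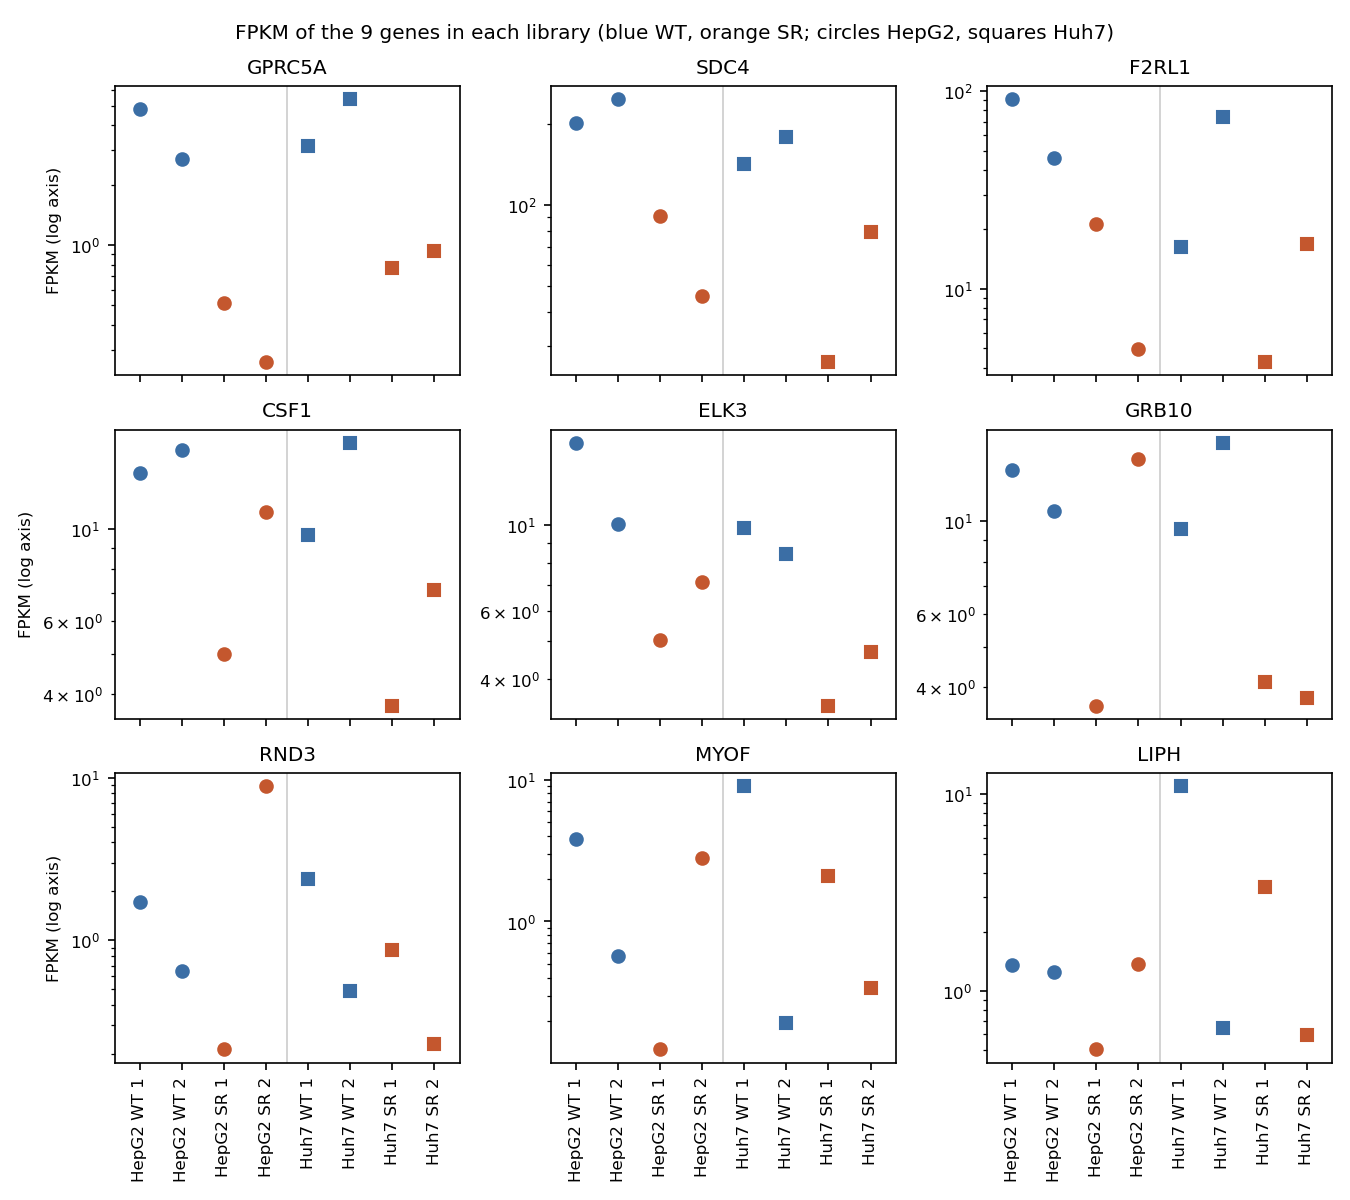
FPKM on a log axis (vertical) of each of the 9 genes in each of the 8 libraries (horizontal), WT in blue and SR in orange, HepG2 as circles and Huh7 as squares. Every orange point lies below every blue point for GPRC5A, SDC4 and ELK3, whereas HepG2 SR replicate 2 is the highest of all libraries for RND3, at 8.82 FPKM.

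Within replicate numbers, the 9 genes divided into those lower in SR throughout and those that changed sign in HepG2 replicate 2. GPRC5A, SDC4, F2RL1, CSF1 and ELK3, 5 of 9, were lower in SR in all 4 pairs, as were 12.4% of the 15173 genes tested. For GPRC5A, SDC4 and F2RL1 every one of these differences exceeded 0.5 on the log2 scale, as it did for 0.870% of genes tested. All 9 genes were lower in HepG2 pair 1, against 49.2% of genes tested, and all 9 in Huh7 pair 1, against 48.7%. In Huh7 pair 2 there were 8 of 9, MYOF excepted, against 57.2%. HepG2 pair 2 gave 5 of 9, against 52.7%. The 9 genes were chosen on these values, so the counts are set beside the background without a reading. The replicate number is only a label here, since nothing states that libraries of the same number were handled together.

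**Figure D2:**
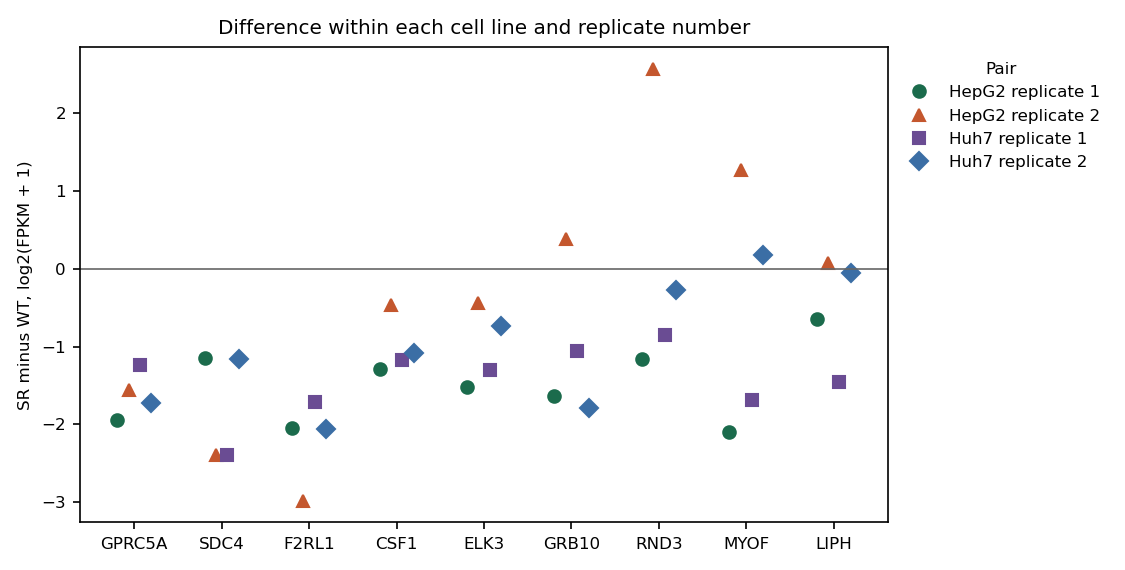
Difference of SR from WT in log2(FPKM + 1) (vertical axis) for each of the 9 genes (horizontal axis), with a marker for each of the 4 pairs of the same cell line and replicate number. GPRC5A, SDC4, F2RL1, CSF1 and ELK3 lie below 0 in every pair, and GRB10, RND3, MYOF and LIPH lie above 0 in HepG2 replicate 2, with RND3 highest at 2.57.

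HepG2 pair 2 is the pair whose libraries belong to different sets, the WT library to the 5 similar ones and the SR library to none. In each of the other 3 pairs, both libraries belonged to the same set. Across those 3 pairs, 8 of 9 genes were lower in SR, all but MYOF, as were 19.8% of genes tested. Within the 5 similar libraries alone, the 2 SR libraries lay below the 3 WT libraries for the same 8 genes, and for 13.9% of genes tested. Over all 8 libraries that held for 3 genes, GPRC5A, SDC4 and ELK3, and for 2.17% of genes tested. Leaving out HepG2 SR replicate 2 raised the number to 5, with CSF1 and GRB10 added, against 2.95% of genes tested. The subset of 5 libraries and that without HepG2 SR replicate 2 were drawn after the values were seen, and the part of the library sets in the differences was not tested.

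The study called genes by an unadjusted p below 0.05 together with a log2 difference that reached 0.5 or lay under -0.5. With edgeR it reported GRB10, RND3, MYOF and LIPH among genes differentially expressed in both cell lines and in a dataset of sorafenib-resistant tissue. The calls below come from another test, limma on FPKM, and are no repeat of that result. By the same thresholds limma called 1.27% of genes tested lower and 0.877% higher in HepG2 SR. GPRC5A, SDC4, F2RL1 and ELK3 were among those lower, and 0 of the 9 genes among those higher. In Huh7 SR it called 0.923% lower, among them GPRC5A, SDC4, ELK3 and GRB10, and 0.942% higher, with 0 of the 9. Since the genes were chosen on this contrast, nothing is read from the 4 in each line. Over all genes, 0 had a Benjamini-Hochberg adjusted p under 0.05 from limma in either cell line, with 325 and 283 called at the unadjusted threshold. The median of the 9 log2 differences was -0.88 in HepG2 and -1.12 in Huh7, beside -0.03 and -0.05 over all genes tested. Which genes were called changed with single libraries. In HepG2 only GPRC5A, 1 of the 9 genes, was called when HepG2 WT replicate 1 was left out. Without HepG2 WT replicate 2 there were 2, GPRC5A and ELK3. In Huh7, 1 gene, LIPH, was called without Huh7 WT replicate 2, and 1 gene, GPRC5A, without Huh7 SR replicate 1. Without HepG2 WT replicate 1, which enters the shared estimate of the spread, 2 were called in Huh7, GPRC5A and SDC4.

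The contrast of Huh7 with HepG2, each as the mean of its WT and SR groups, played no part in the choice of the genes and could be tested. None of the 9 genes differed by this contrast in limma: 0 of 9 were called, and 0 had an unadjusted p under 0.05, beside 4.90% of genes tested called in either direction. Over all genes, 0 had an adjusted p under 0.05, and the smallest adjusted p was 0.813. GPRC5A had a log2 difference of 0.29 (SE 0.29, adjusted p = 0.840) and SDC4 of -0.49 (SE 0.41, adjusted p = 0.818). The largest in size was that of LIPH, 0.72 (SE 0.67, adjusted p = 0.828), followed by F2RL1 at -0.56 (SE 0.70, adjusted p = 0.866) and RND3 at -0.55 (SE 0.69, adjusted p = 0.866). ELK3 stood at -0.47 (SE 0.28, adjusted p = 0.813), and GRB10, CSF1 and MYOF at -0.36, -0.32 and 0.15. An adjusted p above the threshold does not show that the lines were alike in these genes. Since libraries of the same label belonged to different sets, the contrast compares labels. It changed with single libraries. Without HepG2 SR replicate 1, 2 genes were called lower in Huh7, GRB10 and RND3. Without Huh7 WT replicate 2 LIPH was called higher, and without Huh7 SR replicate 2 SDC4 was called lower, 1 gene in each case.

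Relatives and partners of the 9 genes were followed as a list of 77 genes by role, of which 61 passed the filter on low values. In HepG2 SR, 2 of 61 were called, both lower, beside 1.27% of all genes tested, and 0 were called higher. They were GPRC5C, an orphan receptor of the GPRC5A family, with a log2 difference of -0.96 (SE 0.39), and EGR1, an immediate early gene of the ERK and SRF pathway, at -2.56 (SE 0.88). Both had an adjusted p of 0.956 from limma. Neither was called in every fit with a single HepG2 library left out, and the genes of the list that were called changed between those fits. In Huh7 SR 0 of 61 were called by limma at the unadjusted threshold, in either direction. That count also changed when single Huh7 libraries were left out. With the replicate number as a block within each cell line, 13 were called in HepG2 and 3 in Huh7. The share of all genes called was not taken for these alternative fits, so nothing about the list is read from their counts. The median of the list was -0.43 in HepG2, with 42 of 61 below 0, and -0.16 in Huh7, with 40 below 0. Over all genes tested the medians were -0.03 and -0.05. The share of all genes below 0 was not taken, so nothing is read from the 42 and 40. Lower in SR in all 4 pairs were 10 of 61, not far from the 12.4% of all genes tested, and nothing is read from that count. ARHGAP35, among them, was all but level in HepG2 pair 1, at 16.3 FPKM in both libraries. Of the 61, only SRF, RHOC, PRKCA and EHD1 had every SR library below every WT library. That order held for 2.17% of all genes tested, and nothing is read from it.

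Of the partners of ELK3, 3 of 8 were lower in SR in all 4 pairs, beside 12.4% of all genes tested. This was the highest such count of any role, and the role is described for that reason. SRF, the serum response factor itself, measured 16.9 and 17.8 FPKM in HepG2 WT, 16.0 and 8.14 in HepG2 SR, 16.5 and 19.6 in Huh7 WT, and 11.0 and 11.0 in Huh7 SR. Every SR library lay below every WT library, narrowly so for HepG2 SR replicate 1, at 16.0 against 16.5 FPKM in Huh7 WT replicate 1. Its log2 difference was -0.55 (SE 0.39, adjusted p = 0.956) in HepG2 and -0.66 (SE 0.39, adjusted p = 1) in Huh7 by limma. MRTFA and MRTFB, actin-regulated coactivators of SRF, were lower in each pair, MRTFA by between 0.41 and 1.12 and MRTFB by between 0.10 and 1.91 on the log2 scale, and neither was called. The remaining ternary complex factors, ELK1 and ELK4, had differences of both signs. EGR1 measured 23.5 and 31.4 FPKM in HepG2 WT, 7.76 and 1.61 in HepG2 SR, 18.7 and 6.88 in Huh7 WT, and 33.5 and 7.01 in Huh7 SR, lower in SR in both HepG2 pairs and in neither Huh7 pair. That difference between the lines had an unadjusted p of 0.049 and an adjusted p of 1 by the interaction contrast in limma, so it was not called after adjustment. FOS, another immediate early gene, had the same order of signs. The median over the 8 genes was -0.77 in HepG2, with 8 of 8 below 0, and -0.23 in Huh7, with 5 below 0. Over all genes tested the medians were -0.03 and -0.05. In HepG2 pair 1 ELK1 and ELK4 were higher in SR, by 0.13 and 0.19. Each of the 8 was lower in HepG2 pair 2, whose SR library was unlike all others. The share of all genes below 0 was not taken, so nothing is read from these counts.

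**Figure D3:**
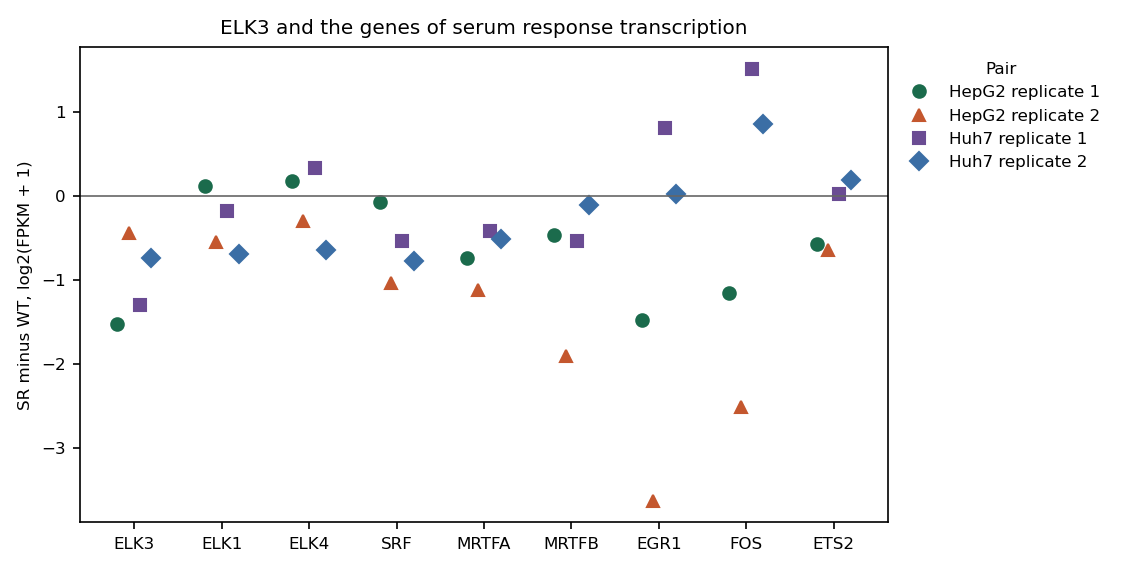
Difference of SR from WT in log2(FPKM + 1) (vertical axis) for ELK3 and 8 genes of serum response transcription (horizontal axis), with a marker for each of the 4 replicate pairs. ELK3, SRF, MRTFA and MRTFB lie below 0 in every pair, and EGR1 and FOS lie below 0 in the HepG2 pairs and above 0 in the Huh7 pairs.

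Among receptors, ligands and activating proteases, 13 of 18 were tested, with a median of -0.62 in HepG2 and -0.06 in Huh7. GPRC5B stood at 13.2 FPKM in HepG2 SR replicate 2 and at most 0.847 elsewhere. F2R, the thrombin receptor PAR1, ran between 1.30 and 8.84 FPKM, and F2RL2 between 0 and 0.365 except in Huh7 WT replicate 1 at 17.4 and Huh7 SR replicate 1 at 7.67 FPKM. F2RL3 reached at most 0.0101 FPKM. ST14, matriptase, a membrane protease that can activate PAR2, was lower in SR in each pair, by 0.27 and 0.59 in HepG2 and by 0.07 and 0.05 in Huh7. Its level in Huh7 replicate 1 was low, at 0.102 FPKM in WT and 0.0491 in SR. Other membrane proteases of the list did not share its order. HPN was higher in SR in every pair but HepG2 replicate 2. TMPRSS2 was lower in both HepG2 pairs and higher in both Huh7 pairs. PRSS8 was lower except in Huh7 replicate 1, at 0 FPKM in both libraries. Beside LIPH, 9 of 12 genes of lysophosphatidic acid were tested, with medians of 0.22 and -0.06. ENPP2, autotaxin, the main extracellular source of this lipid, measured 3.66 and 3.81 FPKM in HepG2 WT, 3.26 and 40.0 in HepG2 SR, 0.0743 and 0.696 in Huh7 WT, and 0.0609 and 2.75 in Huh7 SR.

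Of the adaptors and insulin-type receptors, 9 of 9 were tested, with medians of -0.20 and -0.11, and IRS1 and SHC1 were lower in all 4 pairs. GRB2 ran between 41.0 and 74.7 FPKM without a common order. GRB7 stood at 0.580 FPKM in HepG2 SR replicate 2 and between 6.72 and 67.4 elsewhere, whereas GRB14 reached its highest level, 24.9 FPKM, in that library. RHOC, a small GTPase linked to cell movement, measured 98.1 and 146 FPKM in HepG2 WT, 89.0 and 88.0 in HepG2 SR, 120 and 122 in Huh7 WT, and 91.9 and 64.4 in Huh7 SR, with every SR library below every WT library. RND2 reached 6.36 FPKM in HepG2 SR replicate 2 and at most 0.503 elsewhere, and RND1 ran between 1.54 and 10.5 FPKM. Among the syndecan partners PRKCA, the protein kinase that SDC4 activates, ran from 7.08 to 9.54 FPKM in SR and from 11.1 to 15.4 in WT. The proteoglycan role had medians of -0.46 and -0.12 over 9 of 11 genes. Of the ferlin and membrane repair genes 5 of 9 were tested, with medians of 0.49 and -0.29, and the ferlins DYSF, OTOF, FER1L5 and FER1L6 reached at most 0.716, 0.558, 0.284 and 0.420 FPKM. EHD1, an ATPase of endocytic recycling, ran between 13.5 and 33.5 FPKM in WT and between 9.52 and 12.1 in SR.

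Between the cell lines, 2 of 61 of the list were called by limma, beside 4.90% of genes tested. ENPP2 was lower in Huh7 by a log2 difference of -2.27 (SE 0.76, adjusted p = 0.813), and RND1 was higher by 1.08 (SE 0.44, adjusted p = 0.813). The count changed widely when single libraries were left out. The share of all genes called was not taken for those fits, so nothing is read from the change. Annexins and caveolin, partners of MYOF at the membrane, followed the library sets instead. ANXA2 stood at 434, 413 and 275 FPKM in the 3 libraries outside the similar set and between 33.1 and 51.3 in the other 5. CAV1 and ANXA1 had the same order, as had 9 of 61 of the list, beside 13.2% of genes tested.

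**Figure D4:**
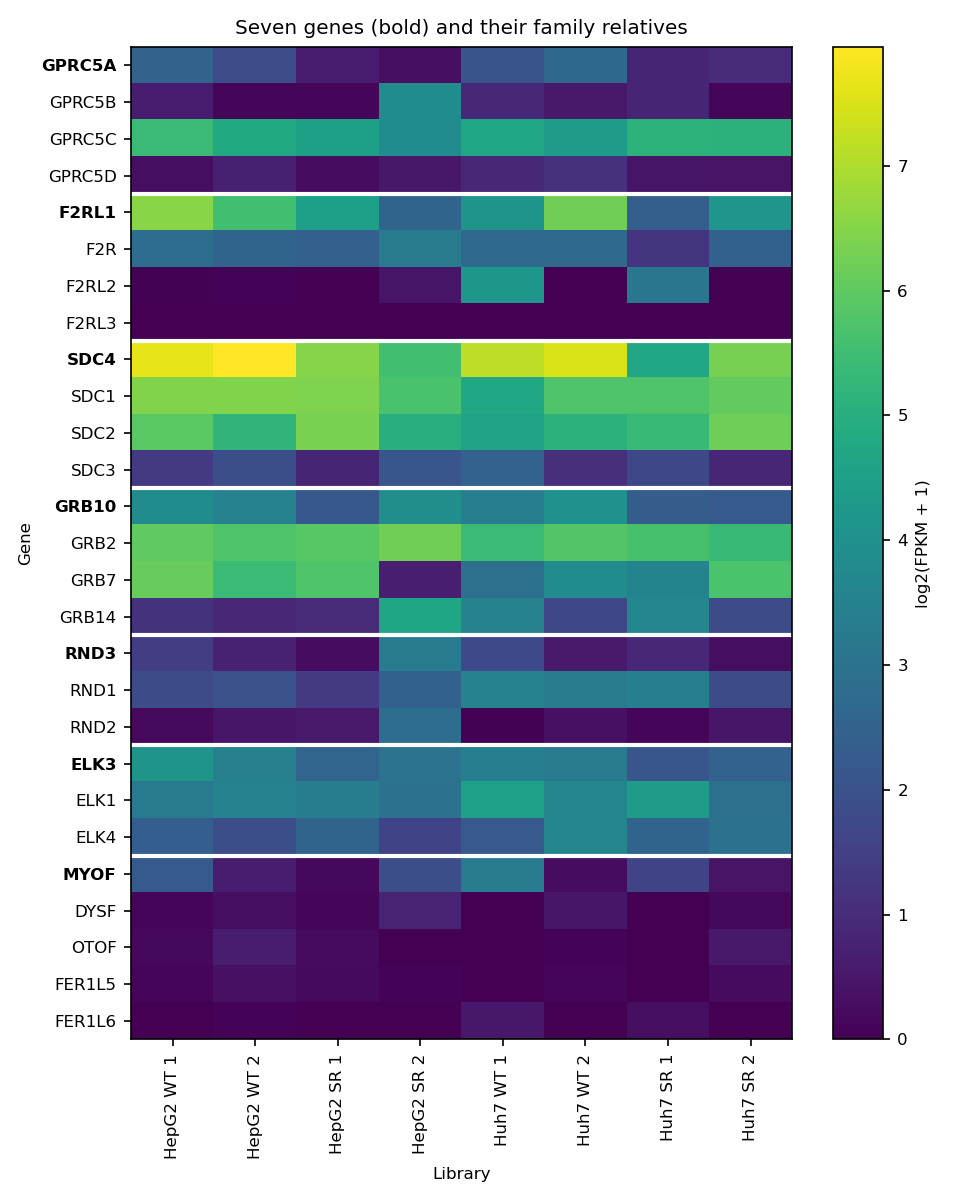
Level as log2(FPKM + 1) (colour) of 7 of the genes (bold) and of their family relatives (rows) in the 8 libraries (columns), with white lines between families. The rows of GPRC5A, SDC4 and ELK3 are darker in all 4 SR libraries, and GPRC5B, GRB14 and RND2 are brightest in HepG2 SR replicate 2.

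For each gene, genes were taken from the 3 with the most similar pattern by Pearson's r of log2(FPKM + 1) over the 8 libraries. These are the highest of many correlations over few libraries that fall into sets, and are given as a description. GPRC5A was like HYCC2 (r = 0.982) and SVIL (r = 0.960), each lower in SR in all 4 pairs. SDC4 was most like UBE2L6 (r = 0.969), MEX3C (r = 0.962) and PLEKHM3 (r = 0.958). F2RL1 was most like CFLAR (r = 0.991), which encodes the caspase 8 inhibitor FLIP, then PPP2CB (r = 0.987), a catalytic subunit of protein phosphatase 2A, and BTBD7 (r = 0.986). For CSF1 they were GAS8, SLC16A5 and ENSG00000249839 (r between 0.917 and 0.957). ELK3 was most like PDCD6IP-DT, FERMT2, or kindlin-2, and CLCF1 (r between 0.949 and 0.964). For GRB10 they were CDKN2B, KLC2 and NBEA (r between 0.933 and 0.934). RND3 was most like APH1B, JCAD and PPP1R3B (r between 0.964 and 0.977), and MYOF was like FGD6 (r = 0.956) and ENSG00000272369 (r = 0.950). LIPH was most like the tight junction gene CLDN1 (r = 0.978), HERC5 (r = 0.977) and RAB27B (r = 0.976). CLDN1 was lower in SR in all 4 pairs, and HERC5 and RAB27B in 2.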

How the data were processed

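Polyadenylated RNA of HepG2 and Huh7 WT and SR cells was sequenced in 8 libraries, 2 per group, grouped by their labels. The authors deposited FPKM values for each library, unpooled, and used edgeR themselves. The submitters' processing notes name fastp 0.20.0 and GRCh38. The aligner, counter and annotation are not given in the sources used here, and strand-aware counting is not stated. FPKM are not counts, and whole reads could not be recovered: 3.37% to 22.0% of low values in 10635 single-transcript genes came within 0.02 of a whole number of reads, where chance gives 4.00%.

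log2(FPKM + 1) was fitted with limma 3.58.1 in R 4.3.3 (lmFit, eBayes with trend) as 4 group means, for 15173 genes with at least 1 FPKM in at least 2 libraries, with 4 residual degrees of freedom. P-values were adjusted by Benjamini-Hochberg over all genes tested. The pipeline was tested on simulated data. Of 63241 identifiers, 62666 had a symbol and 58228 were in GENCODE 29, the source of gene positions. Promoters came from RefSeq. Tables were made with Python 3.11.15, pandas 2.3.3 and NumPy 2.4.6, and figures with matplotlib 3.10.9.

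Genes named are the 9 members, their family relatives, listed relatives that were called, and genes from the 3 nearest patterns of each member. Listed relatives lower in all 4 pairs or ordered by library set were added to these after the values were seen. No class of relatives higher in SR was added, so those named lean to lower values in SR. A few results that the rule would name are not reported here. CSF1R, IL34, FOS, HPN, TMPRSS2, PRSS8 and the like were also named after their values were seen. Members and lists were chosen with earlier results of these data known. Alternatives were the pseudocount, filter, scaling, replicate block, trend, separate fits, adjusted p and each library left out.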

Additional observations from a re-analysis of the deposited data

Results flagged for a closer look

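GRB10 in the 4 SR libraries is given for a library far from the others. HepG2 SR replicate 2 stood at 14.1 FPKM and the other 3 SR libraries between 3.61 and 4.11. Its gap to the nearest of them was 0.912 of the whole range on the log2 scale. GRB10 was chosen for low values in these SR libraries, so Dixon's critical value does not apply and the gap is a description. High and low ends of 18 groups of 4 libraries were examined, 36 ends, and no chance rate is given for them. The same library stood apart from all others in expression across genes, and its part in this value was not tested.

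GPRC5C, the relative of GPRC5A, is given for a difference between the cell lines. Its SR libraries stood at 21.9 and 13.1 FPKM against 42.2 and 27.3 in WT in HepG2, and at 34.2 and 33.7 against 26.2 and 19.9 in Huh7. The difference of SR from WT was higher in Huh7 than in HepG2 by 1.51 on the log2 scale (SE 0.55). Its unadjusted p was 0.0296 and its adjusted p 1 by the interaction contrast in limma, where 0 of 15173 genes had an adjusted p under 0.05 and 92 an unadjusted p under 0.05, so it failed the correction.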

How the results depend on the processing

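The number of the 9 genes called was 4 in HepG2 and 4 in Huh7 and fell to 0 and 0 at the adjusted p. With quantile normalization it was 2 in Huh7. With each library left out in turn it ran from 1 to 4 in HepG2 and from 1 to 5 in Huh7, and the 4 in HepG2 without HepG2 SR replicate 1 included RND3 as higher in SR. Between the cell lines it ran from 0 to 2. Genes lower in SR in all 4 pairs numbered 5, and 3 when a difference below -0.5 was asked for. Restricting to pairs whose libraries had an r above 0.9 gave 8. Genes with all SR libraries below all WT libraries numbered 3, and 5 without HepG2 SR replicate 2 and 8 in the 5 similar libraries, settings chosen after seeing the data. TPM moved the median of all genes in HepG2 pair 2 from -0.05 to -0.16, and quantile normalization moved it to 0.05, and 5 genes were lower in all 4 pairs under each. The cause of these moves was not tested. Read depth could not be established, which limits what low values of RND3 and MYOF can show.

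With the replicate number as a block, the number called was 2 in HepG2 and 4 in Huh7, and with a replicate block within each cell line 3 and 6, the latter giving no contrast between the lines. Deviations of same-numbered libraries correlated at 0.796 between Huh7 WT and SR, 0.125 between HepG2 WT and SR, and between -0.562 and -0.042 across the lines. The Huh7 libraries of a number also belong to the same set. No source ties a number to a shared culture or day, so the block was kept as an alternative.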
